A study of Mus musculus with 8 samples.

Results

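Efferocytosis is the uptake of dying cells by phagocytes, and 9 of its genes were followed here in macrophages of CCl4-injured and vehicle-treated mouse livers. The genes were chosen by symbol and known role, with earlier results of these data known. They were the receptors Mertk, Axl and Timd4, the bridging proteins Gas6, Pros1 and Mfge8, and the engulfment adaptors Elmo1, Dock1 and Gulp1. All 9 had estimated counts among 35906 genes and a line in the deposited FPKM table. Of these, 8 were among the 15212 genes tested, and Gulp1 fell under the filter on low counts.

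A dying cell displays phosphatidylserine on its surface as a signal to be eaten. A phagocyte reads this signal either directly, as through TIM-4 (encoded by Timd4), or through soluble bridges. Gas6 and protein S (Pros1) link it to the TAM receptor tyrosine kinases Tyro3, Axl and Mertk, and Mfge8 links it to alpha-v integrins. Engulfment then runs through Elmo1 and Dock1, which together activate the small GTPase Rac, and through the adaptor Gulp1. In liver, the resident macrophages known as Kupffer cells are a main site of this clearance.

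The 2 groups were 4 libraries from CCl4-treated mice and 4 from vehicle-treated mice, all wild-type BALB/c. Carbon tetrachloride (CCl4) is a hepatocyte toxin used to produce liver fibrosis, while its dose, the length of treatment and the age of the mice were not stated in the labels. Live cells were sorted as CD45-positive and F4/80-positive after hepatocytes had been spun out, and the series' design text adds that they were CD31-negative. Whether every library came from its own mouse is not stated, and the p-values therefore rest on the spread among these libraries, which may be partly technical.

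Libraries held 19489104 to 26196063 estimated counts. The gate genes Adgre1 (F4/80) and Ptprc (CD45) averaged 1187 ± 166 and 623.4 ± 73.8 CPM in CCl4 and 1272 ± 210 and 512.3 ± 78.0 CPM in vehicle libraries (SD, n = 4 each), and neither passed the test (edgeR adjusted p = 0.768 and 0.289). CPM (TMM-normalized) scale each gene's counts to the size of its library and are not corrected for transcript length. Pecam1, which encodes CD31, averaged 27.4 ± 2.9 CPM in CCl4 and 73.8 ± 21.3 CPM in vehicle libraries (edgeR adjusted p = 0.00096). CCl4 4 and vehicle 2 stood apart from the other libraries, with 23891 genes above 0 in CCl4 4 and 23047 in vehicle 2, against 19271 to 21704 in the other 6. Vehicle 2 was also the vehicle library with the lowest level of all members tested except Mfge8, so values without it are given beside the members that it moved by over 1.5 times.

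Between CCl4 and vehicle macrophages, 1 member rose, the bridging protein Mfge8, and 1 fell, the receptor Timd4. The other 6 tested members (Mertk, Axl, Gas6, Pros1, Elmo1 and Dock1) did not pass the test. For comparison, 8.93% of all tested genes were called higher and 6.26% lower by the same edgeR quasi-likelihood test (Benjamini-Hochberg adjusted p under 0.05), so the count of called members is near that of genes at large. Groups did not overlap for the same 2 members, against 22.5% of all tested genes. Both calls were also made without CCl4 4 and vehicle 2 together. Scaling by library size alone moved the median log2 fold change of all genes from -0.03 to -0.16, and no member changed direction with it.

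**Figure D1:**
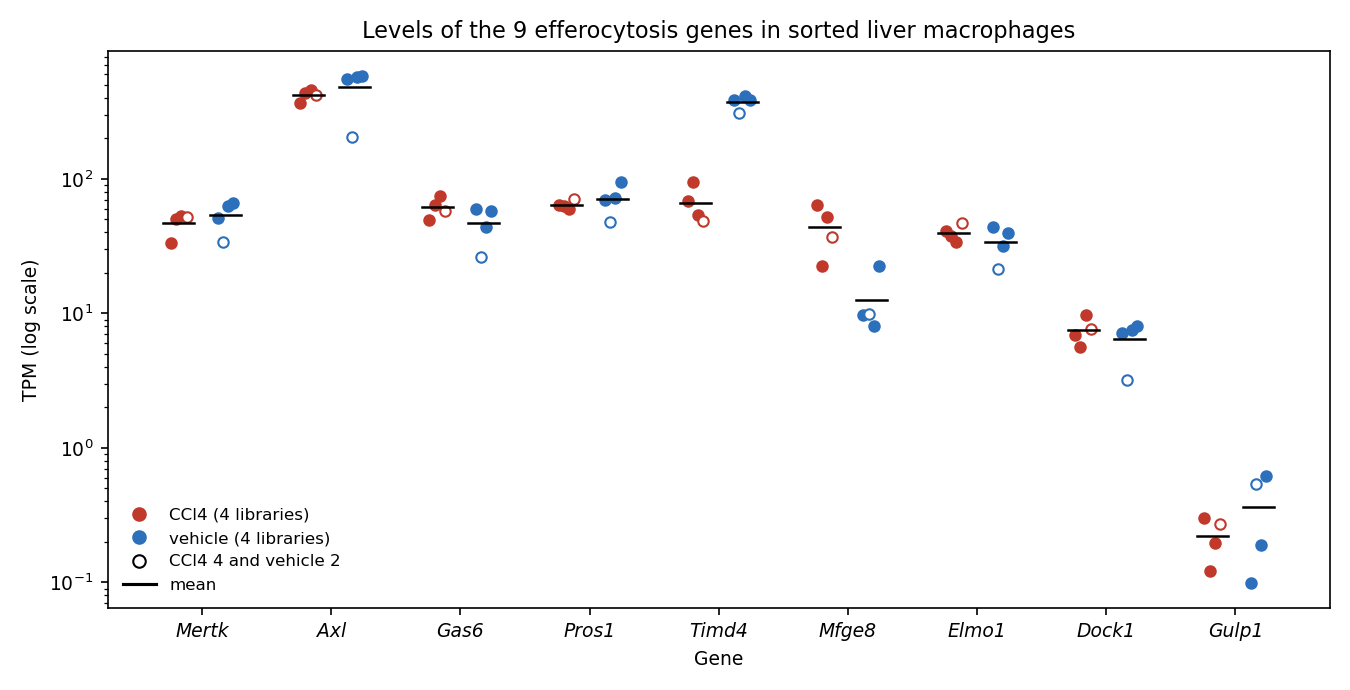
TPM (log axis) of the 9 genes in each library, CCl4 left of vehicle; bars are group means and open circles mark CCl4 4 and vehicle 2. The groups are fully apart for Timd4 (48.3 to 94.4 in CCl4, 307 to 412 in vehicle) and Mfge8 (22.6 to 63.5 in CCl4, 8.0 to 22.5 in vehicle), where the nearest points almost touch.

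Levels can be compared between genes as TPM, which accounts for transcript length. Gene TPM sums all annotated transcripts, so a few reads on a short one can raise it. Dock1-202 (411 bases, 12 counts) made 34.6% of Dock1 TPM in CCl4 3. Elmo1-207 (580 bases, 62 counts) made 20.9% of Elmo1 TPM in vehicle 1. Axl was the most abundant member in both groups, at 419.9 ± 37.5 TPM in CCl4 and 480.1 ± 182.5 TPM in vehicle libraries. In CCl4 libraries Timd4 (66.2 ± 20.7), Pros1 (64.4 ± 4.5), Gas6 (61.4 ± 10.9), Mertk (47.2 ± 9.4), Mfge8 (43.8 ± 17.9) and Elmo1 (39.9 ± 5.4 TPM) followed, and each neighbouring pair among these 6 overlapped. Dock1 (7.48 ± 1.75 TPM) and Gulp1 (0.22 ± 0.08 TPM) came last and overlapped no neighbour. In vehicle libraries Timd4 was second at 372.7 ± 45.7 TPM and overlapped Axl through vehicle 2 alone, at 206.8 TPM of Axl. Below it, from Pros1 (71.3 ± 19.1) through Mertk (53.7 ± 14.6), Gas6 (47.1 ± 15.5), Elmo1 (34.1 ± 9.9) and Mfge8 (12.5 ± 6.7) to Dock1 (6.48 ± 2.23 TPM), every gene overlapped the next. Gulp1 was lowest there too, at 0.36 ± 0.25 TPM.

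Timd4 encodes TIM-4, which binds phosphatidylserine directly and is known from resident, embryonically seeded macrophages. The gene lies on chromosome 11 (46810800 to 46844332, plus strand, GRCm38), and a single annotated transcript held all its counts. Timd4 had 113.1, 150.1, 96.5 and 68.2 TMM-normalized CPM in CCl4 1 to 4 and 634.3, 517.4, 623.6 and 567.6 CPM in vehicle 1 to 4. The highest CCl4 library was far below the lowest vehicle library. Timd4 fell by 2.45 on the log2 scale (SE 0.23, edgeR adjusted p = 5.44e-05). In the deposited FPKM table it ran from 4.32 to 11.5 in CCl4 and from 33.3 to 48.0 in vehicle libraries.

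Markers of Kupffer cells fell beside Timd4, and their part in its fall was not tested. Of 11 such markers, which do not include Timd4, 10 were lower and 0 higher by edgeR (0 higher also at unadjusted p under 0.05 and by DESeq2 or limma on FPKM), with a median log2 fold change of -1.26 against -0.03 for all tested genes. Their summed level was 6393 to 11872 CPM in CCl4 and 16914 to 26270 CPM in vehicle libraries. In bulk RNA, fewer cells of a type and less RNA per cell cannot be told apart. Relative to Clec4f, which encodes a lectin known from Kupffer cells, Timd4 stood at TPM ratios of 0.0477, 0.0361, 0.0264 and 0.0302 in CCl4 1 to 4 and 0.0530, 0.0746, 0.0533 and 0.0545 in vehicle 1 to 4. All CCl4 ratios lay below all vehicle ratios, a mean difference of -0.77 on the log2 scale. The exact two-sided permutation p was 0.0286, the smallest that 4 against 4 allows, and 0.0857 after adjustment over the 3 ratios compared, so it did not pass. A ratio that alone reaches the smallest p cannot pass after this adjustment, so the test does not decide whether Timd4 fell beyond Clec4f. The ratio also depends on the marker chosen. Log2 fold changes in the marker list ran from -3.26 (Cd163, SE 0.35) to -0.52 (Marco, SE 0.25), with Clec4f at -1.72 and Timd4 at -2.45. The 3 tested genes most like Timd4 over the 8 libraries were Pcolce2 (Pearson r = 0.998 of log2 CPM), Nipal1 (0.998) and Slc1a2 (0.996), as a description in which the difference between the groups enters the r.

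**Figure D2:**
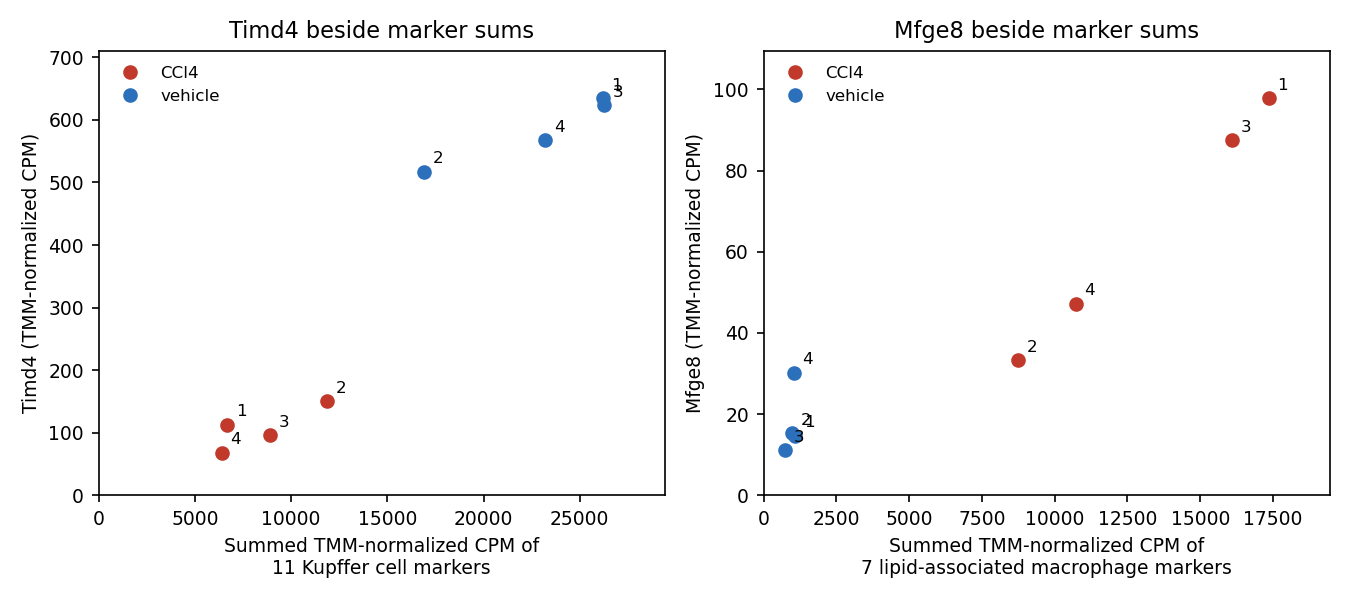
Timd4 against the summed CPM of 11 Kupffer cell markers (left) and Mfge8 against the summed CPM of 7 lipid-associated macrophage markers (right), 1 point per library with its replicate number. CCl4 libraries lie at the low end for Timd4 and at the high end for Mfge8, where CCl4 1 and 3 have the most of both.

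Mfge8 encodes a secreted protein that coats apoptotic cells and presents them to integrins, and it is made by several cell types besides macrophages. The gene lies on chromosome 7 (79133768 to 79149060, minus strand, GRCm38). Mfge8 had 97.8, 33.4, 87.5 and 47.2 CPM in CCl4 1 to 4 and 14.7, 15.3, 11.1 and 30.2 CPM in vehicle 1 to 4. CCl4 1 and 3 were high, and CCl4 2 exceeded vehicle 4 by little. Mfge8 rose by 1.90 on the log2 scale (SE 0.38, edgeR adjusted p = 0.00539). With single libraries left out, the log2 fold change stayed between 1.66 and 2.28 and the edgeR adjusted p between 0.00228 and 0.0206. Deposited FPKM ran from 2.75 to 6.71 in CCl4 and from 0.94 to 2.49 in vehicle libraries.

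Almost all Mfge8 counts belonged to 2 protein-coding transcripts, which differ in 1 coding exon besides a few bases at their ends. The mouse protein is known in a long form with a proline- and threonine-rich stretch and a short form without it. Mfge8-201 has exon 4, of 111 bases (37 codons), at chr7:79143278-79143388 on the minus strand of GRCm38, and Mfge8-202 joins exon 3 directly to the next one. Both junctions are shown because the results turn on them, from GENCODE M21, with exon 4 in capitals and 20 bases of each neighbouring exon in lower case.
Mfge8-201: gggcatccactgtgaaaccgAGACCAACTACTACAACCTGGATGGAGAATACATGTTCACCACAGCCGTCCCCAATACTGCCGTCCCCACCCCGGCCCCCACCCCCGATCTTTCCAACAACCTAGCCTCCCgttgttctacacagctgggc
Mfge8-202: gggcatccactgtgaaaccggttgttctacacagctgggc

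The longer transcript held a larger share of Mfge8 counts in CCl4 libraries. Mfge8-201 held 38.68%, 26.24%, 28.45% and 27.98% of the gene's estimated counts in CCl4 1 to 4, and 12.18%, 1.57%, 7.25% and 12.02% in vehicle 1 to 4. Every CCl4 share exceeded every vehicle share, with means of 30.3% in CCl4 and 8.26% in vehicle libraries. The nearest values were those of CCl4 2 (222 of 846 counts, 95% Wilson interval 23.4% to 29.3%) and vehicle 1 (45 of 368, 9.27% to 16.0%). These intervals cover counting error only, not the uncertainty of assigning reads to transcripts. Vehicle 2 rested on 5 counts. Mfge8-202 held 61.1%, 73.8%, 71.4% and 71.2% in CCl4 1 to 4 and 87.5%, 98.0%, 92.8% and 87.3% in vehicle 1 to 4. In level, Mfge8-201 averaged 13.2 ± 7.7 TPM in CCl4 and 1.09 ± 1.05 TPM in vehicle libraries, and Mfge8-202 30.2 ± 10.7 TPM in CCl4 and 11.4 ± 5.7 TPM in vehicle libraries. No test was planned for transcript shares. Among 22 member transcripts with a mean of 10 or more counts, 4 had groups that did not overlap in share, against 6.55% of 37500 such transcripts of all tested genes. These 4 came from Mfge8 and Axl alone. The 2 Mfge8 shares are near mirror images, so the 4 are not separate events.

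**Figure D3:**
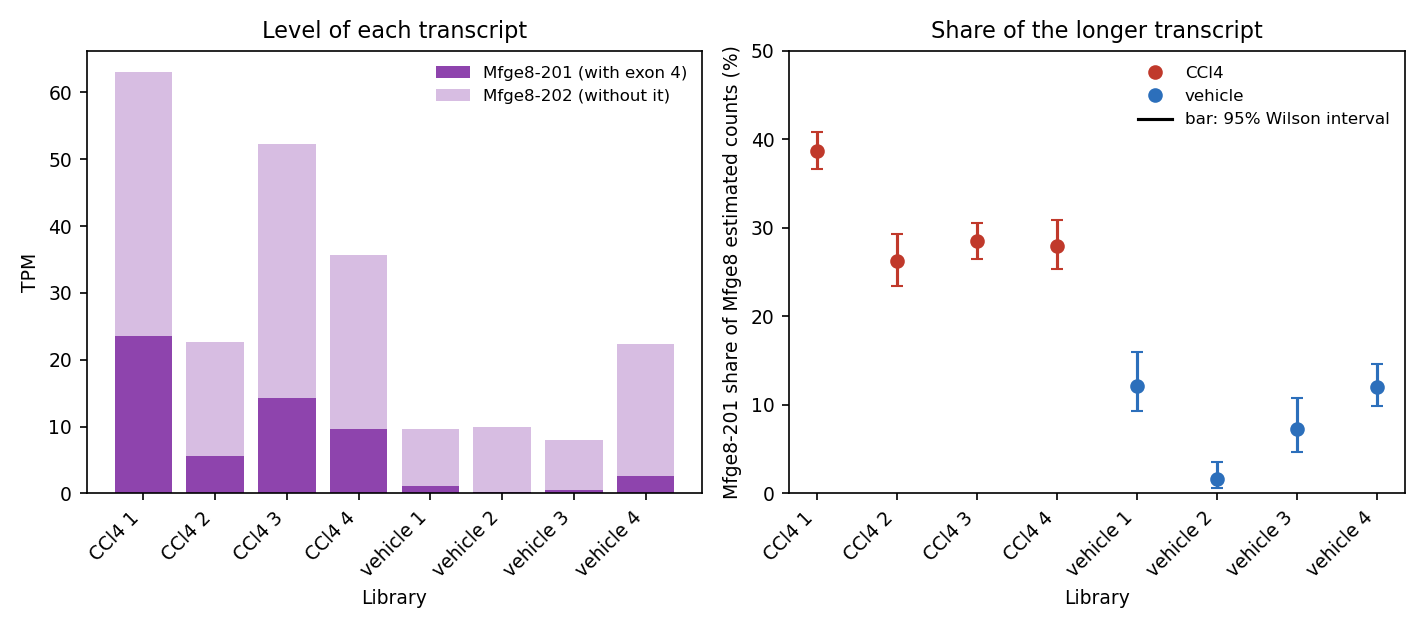
Left, TPM of the 2 main Mfge8 transcripts stacked in each library; right, share of Mfge8 estimated counts held by Mfge8-201, with 95% Wilson intervals. The 4 CCl4 libraries sit between 26.2% and 38.7%, all above the vehicle libraries, which sit between 1.57% and 12.2%.

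Markers of several cell states and types moved with Mfge8, and their part in its rise was not tested. All 7 markers of lipid-associated macrophages were higher, with summed levels of 17366, 8754, 16095 and 10723 CPM in CCl4 1 to 4, against 734 to 1094 CPM in vehicle libraries. The order of the CCl4 libraries by this sum was that of Mfge8, as it was by Spp1 and by Cd9. By Trem2, Gpnmb, Fabp5, Cd63 or Lpl the order differed. Gpnmb, the largest part of the sum, had 9151, 3915, 9522 and 5818 CPM in CCl4 1 to 4. The order of the vehicle libraries by the sum was not that of Mfge8. Their sums were 1094, 975, 734 and 1034 CPM in vehicle 1 to 4, while Mfge8 was highest in vehicle 4. Of 7 mesothelial markers 6 rose, to sums of 65.0, 60.1, 171.3 and 57.3 CPM in CCl4 1 to 4 against 5.02 to 22.4 CPM in vehicle libraries. Of 10 tested stellate and fibroblast markers 3 rose, the collagens Col1a1, Col1a2 and Col3a1, and 3 fell, Lrat, Reln and Ecm1, which were chosen after their values were seen. Summed, that list ran from 565.6 to 919.8 CPM in CCl4 and from 662.6 to 1389 CPM in vehicle libraries. Of 7 dendritic cell markers 1 rose (Flt3) and 1 fell (Clec9a), both also chosen after their values were seen, and the sum was 116.6 to 291.3 CPM in CCl4 and 75.9 to 151.0 CPM in vehicle libraries. Of 9 neutrophil markers 4 rose (S100a8, Mpo, Elane and Ltf, named after their values were seen), with sums of 243.3, 231.8, 144.8 and 65.2 CPM in CCl4 1 to 4 and 32.5 to 84.1 CPM in vehicle libraries, so that CCl4 4 lay within the vehicle range. Of 7 monocyte-derived macrophage markers 4 rose, with sums of 714.7 to 778.5 CPM in CCl4 and 176.6 to 257.5 CPM in vehicle libraries. Of 9 hepatocyte markers 1 fell (Alb) and of 8 B and T cell markers 1 fell (Cd79b), both named after their values were seen, and 0 rose in either list by edgeR, at unadjusted p under 0.05, by DESeq2 or by limma on FPKM. None of these lists had a marker under 1 CPM in every library. The 3 tested genes most like Mfge8 were Ppfibp1 (Pearson r = 0.988 over 8 libraries), Ppm1j (0.984) and Ei24 (0.982). The difference between the groups enters these r too. Ei24 passed the test (edgeR adjusted p = 0.0347), while Ppfibp1 and Ppm1j did not (0.0547 and 0.0577).

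The TAM receptors were not called. Mertk, the receptor kinase best known for apoptotic cell uptake by macrophages (chromosome 2, 128698956 to 128802894, plus strand), had 115.3, 165.0, 200.9 and 151.9 CPM in CCl4 1 to 4 and 175.8, 102.8, 201.3 and 199.9 CPM in vehicle 1 to 4. The groups overlapped over nearly their whole range. The fitted log2 fold change was -0.10 with a 95% interval of -0.55 to 0.35 by a normal approximation (SE 0.23), and edgeR's adjusted p was 0.822. Without vehicle 2 it was -0.28 (edgeR adjusted p = 0.322). Vehicle 2 also differed in the share of estimated counts assigned to each Mertk transcript. There the noncoding Mertk-202 took 28.6% of Mertk counts (634 of 2214, 95% Wilson interval 26.8% to 30.6%), against 1.09% to 4.35% in the other vehicle libraries and 1.23% to 4.05% in CCl4 libraries. Mertk-201, the full coding transcript, held the rest. The interval covers counting error only, not the uncertainty of assigning reads to transcripts.

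Axl, the TAM receptor that Gas6 binds most tightly (chromosome 7, 25757273 to 25788705, minus strand), had 1133, 1320, 1555 and 1102 CPM in CCl4 1 to 4 and 1789, 651.1, 1706 and 1691 CPM in vehicle 1 to 4. All CCl4 libraries lay below 3 of the vehicle libraries and above vehicle 2. The log2 fold change was -0.19 (SE 0.28, edgeR adjusted p = 0.719), and -0.44 without vehicle 2 (edgeR adjusted p = 0.0952), which did not pass either. Tyro3, the remaining TAM receptor, was at most 0.84 CPM in any library and was not tested. The Axl to Mertk TPM ratio was 11.1, 8.69, 8.55 and 8.07 in CCl4 1 to 4 and 10.8, 6.06, 9.11 and 8.77 in vehicle 1 to 4, and the difference did not pass (exact permutation p = 0.8, also 0.8 after adjustment over 3 ratios). The sign of that difference turned without CCl4 1 or without vehicle 2.

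The share of Axl transcripts differed little between the groups for the main form. Axl-201, with all 20 exons, held 92.5% to 94.1% of Axl counts in CCl4 and 92.9% to 95.7% in vehicle libraries. Axl-202 lacks the 27 bases (9 codons) of exon 10, at chr7:25773099-25773125 on the minus strand, and also differs at both ends. The exon is shown in capitals between 20 bases of its neighbours, because it sets the coding difference between these receptor forms.
Axl-201: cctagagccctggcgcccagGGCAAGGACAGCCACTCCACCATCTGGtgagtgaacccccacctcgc
Axl-202: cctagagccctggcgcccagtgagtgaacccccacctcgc
Axl-202 held 3.55%, 3.00%, 3.76% and 3.34% of Axl counts in CCl4 1 to 4 and 5.26%, 2.62%, 5.29% and 5.45% in vehicle 1 to 4, so that vehicle 2 alone fell below the CCl4 libraries. The intron-retaining Axl-205 held 2.29% to 3.38% in CCl4 and 0.91% to 1.34% in vehicle libraries, and Axl-206, another intron-retaining transcript, 0.18% to 0.36% in CCl4 and 0.11% to 0.14% in vehicle libraries. These 2 and the 2 forms of Mfge8 were the 4 transcripts without overlap between the groups.

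The TAM ligands were not called either. Gas6 (chromosome 8, 13465374 to 13494490, minus strand) had 97.1, 122.1, 161.3 and 97.1 CPM in CCl4 1 to 4 and 119.3, 53.3, 80.0 and 101.0 CPM in vehicle 1 to 4. CCl4 3 was the highest and vehicle 2 the lowest, and the groups overlapped (log2 fold change 0.43, SE 0.25, edgeR adjusted p = 0.284, and 0.26 without vehicle 2, edgeR adjusted p = 0.458). Pros1, which encodes the anticoagulant protein S (chromosome 16, 62854307 to 62929346, plus strand), had 166.2, 158.6, 172.4 and 154.8 CPM in CCl4 1 to 4 and 177.8, 128.3, 175.9 and 220.2 CPM in vehicle 1 to 4. Its CCl4 libraries lay within the range of the vehicle libraries (log2 fold change -0.11, SE 0.17, edgeR adjusted p = 0.735, and -0.23 without vehicle 2, edgeR adjusted p = 0.247). The Gas6 to Pros1 TPM ratio was 0.766, 1.02, 1.25 and 0.811 in CCl4 1 to 4 and 0.859, 0.552, 0.606 and 0.611 in vehicle 1 to 4. Vehicle 1 overlapped the CCl4 ratios, and the difference of 0.54 on the log2 scale did not pass (exact permutation p = 0.0857, adjusted p = 0.129 over 3 ratios).

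Among the engulfment adaptors, Elmo1, the scaffold that holds Dock1 in its active state, had 123.1, 111.4, 138.6 and 117.8 CPM in CCl4 1 to 4 and 110.5, 67.0, 96.5 and 111.6 CPM in vehicle 1 to 4. In CPM the groups overlapped only through CCl4 2 and vehicle 4 (log2 fold change 0.35, SE 0.17, edgeR adjusted p = 0.22, and 0.21 without vehicle 2, edgeR adjusted p = 0.29). In TPM they overlapped more widely, at 34.0 to 46.6 in CCl4 and 21.3 to 43.7 in vehicle libraries. Elmo1 lies on chromosome 13 (20090596 to 20608353, plus strand), and Elmo1-201 held 73.0% to 87.1% of its counts over the 8 libraries. Dock1, the Rac exchange factor, had 31.4, 25.2, 30.2 and 28.6 CPM in CCl4 1 to 4 and 30.5, 13.7, 27.8 and 33.2 CPM in vehicle 1 to 4. The groups overlapped, and vehicle 2 was the lowest of all 8. Dock1's log2 fold change, 0.13 with an SE of 0.23 (edgeR adjusted p = 0.77), became -0.081 without vehicle 2. Dock1 spans chromosome 7, 134670654 to 135173639 (plus strand), and holds on its other strand the gene Fam196a, which had 15 to 48 counts per library. Gulp1, an adaptor that binds the tail of engulfment receptors (chromosome 1, 44551511 to 44796838, plus strand), had 4 to 7 counts in CCl4 and 3 to 9 in vehicle libraries. No comparison was made at that depth.

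**Figure D4:**
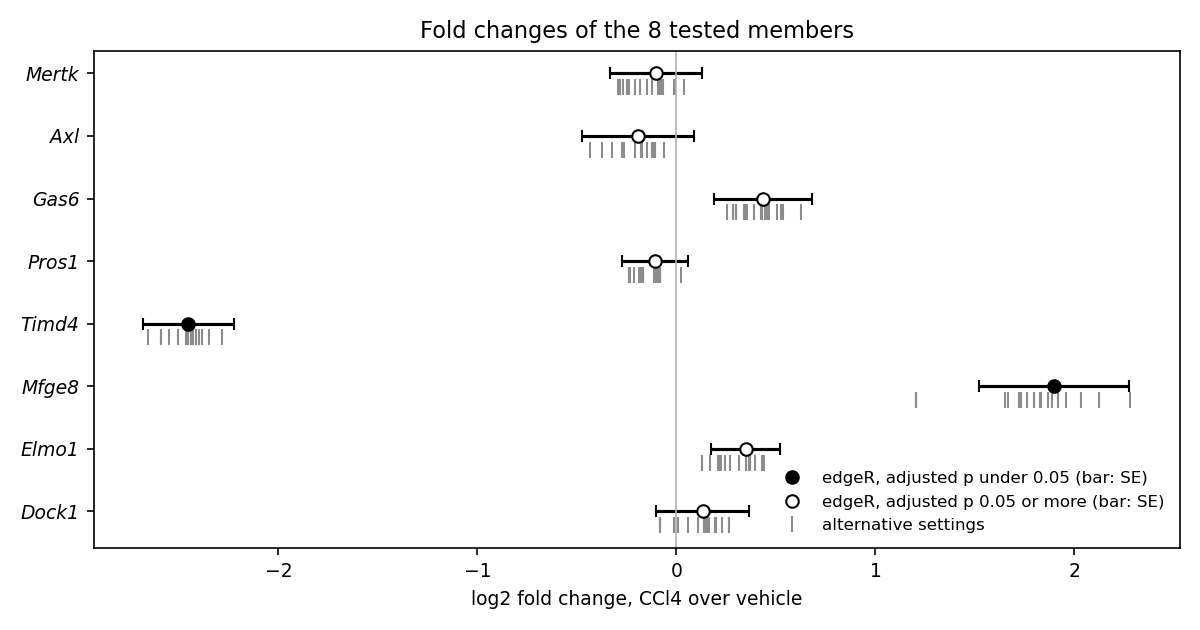
edgeR log2 fold change of the 8 tested members, CCl4 over vehicle, with SE bars; filled circles passed the test and ticks below each give the alternative settings. Timd4 (-2.45) and Mfge8 (1.90) lie far from 0, and the other 6 lie between -0.19 and 0.43.

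Other genes of the pathway were counted in 6 lists by role. For comparison with these counts, 8.93% of all tested genes were called higher and 6.26% lower by edgeR. Of 27 tested receptors and bridging proteins other than the members, 9 rose and 2 fell, with a median log2 fold change of 0.29. Havcr2 (TIM-3, a relative of TIM-4) averaged 85.0 ± 8.1 CPM in CCl4 and 21.2 ± 5.2 CPM in vehicle libraries (log2 fold change 2.00, SE 0.19). The scavenger receptor Cd36 (2.18, SE 0.21), its ligand thrombospondin-1 (Thbs1; 2.66, SE 0.34) and the phospholipid-binding Anxa1 (2.89, SE 0.45) rose as well, each with all CCl4 libraries above all vehicle libraries. The 2 that fell, named after their values were seen, were Stab2 (-1.41, SE 0.28), a phosphatidylserine receptor that is also a marker of sinusoidal endothelium, and the complement chain C1qc (-0.63, SE 0.19, edgeR adjusted p = 0.0448). Of 11 endothelial markers, a list that holds Stab2 itself, 9 fell including Stab2, with sums over the list of 227.8 to 376.7 CPM in CCl4 and 601.5 to 1009 CPM in vehicle libraries, and the part of those cells was not tested. With single libraries left out, 6 to 11 were higher, the fewest without CCl4 3. Only 1 was lower without CCl4 1, 2 or 4 or without vehicle 1, 3 or 4, and 2 were lower without CCl4 3 or vehicle 2.

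Of 18 genes of the Elmo-Dock-Rac route other than the members, 2 rose and 2 fell. These counts are near the shares of all tested genes, 8.93% higher and 6.26% lower. Arhgap25, a Rac-inactivating protein of phagocytes, averaged 265.1 ± 65.5 CPM in CCl4 and 120.2 ± 27.6 CPM in vehicle libraries (log2 fold change 1.14, SE 0.22, edgeR adjusted p = 0.0046), and focal adhesion kinase (Ptk2) 17.7 ± 4.0 CPM in CCl4 and 33.9 ± 2.4 CPM in vehicle libraries (-0.94, SE 0.17, edgeR adjusted p = 0.00318). The GTPase Rhog, which recruits Elmo1, rose (0.49, SE 0.15, edgeR adjusted p = 0.0453), a call that ended on leaving out any library but CCl4 4 (edgeR adjusted p from 0.0519 to 0.125). The adaptor Bcar1 fell (-0.90, SE 0.24, edgeR adjusted p = 0.0262), and its call ended without CCl4 2 (0.0592), CCl4 4 (0.056) or vehicle 4 (0.0839), and without CCl4 4 and vehicle 2 together (0.0635).

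Find-me and do-not-eat-me signals are the attractants that dying cells release and the brakes that living cells display. Of 11 genes that release, display or sense such signals, most of them receptors, 3 rose and 1 fell. Without vehicle 1, 5 rose, and without CCl4 4 and vehicle 2, 6 rose. The lysophospholipid receptor Gpr132 averaged 21.6 ± 6.5 CPM in CCl4 and 4.56 ± 1.99 CPM in vehicle libraries (2.24, SE 0.34), and S1pr1, a sphingosine-1-phosphate receptor, 46.4 ± 9.8 CPM in CCl4 and 16.4 ± 5.7 CPM in vehicle libraries (1.5, SE 0.25). The fractalkine receptor Cx3cr1, which is in the list of monocyte-derived macrophage markers too, rose by 1.05 (SE 0.22), although its groups overlapped. The channel Panx1, which releases nucleotides from dying cells, fell (-0.65, SE 0.14, edgeR adjusted p = 0.00997), a call that ended with limma on log2(FPKM + 1), where its adjusted p was 0.0613 with the filter on low values and 0.18 without it, and on log2(FPKM + 0.1), where it was 0.0722.

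Of 19 genes of LC3-associated phagocytosis and corpse digestion, 2 rose, near the 8.93% of all tested genes called higher, and 0 fell by edgeR. At unadjusted p under 0.05, 6 were higher and 0 lower, DESeq2 called 6 higher and 0 lower, and limma on FPKM called 1 higher and 0 lower. These were the conjugation protein Atg12 (0.58, SE 0.13, edgeR adjusted p = 0.0123) and the lysosomal membrane protein Lamp2 (0.54, SE 0.16, edgeR adjusted p = 0.0438). Lamp2 lost its call without CCl4 1 (0.0827), CCl4 2 (0.106), CCl4 3 (0.0617), vehicle 3 (0.0811) or vehicle 4 (0.102). Those same 5 omissions left 1 gene higher, while 4 were higher without CCl4 4 or without vehicle 1 and 5 without CCl4 4 and vehicle 2 together.

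Of 15 genes that handle the lipid and solute load of engulfed cells or regulate receptor genes, 6 rose and 2 fell. The glucose transporter Slc2a1 (1.79, SE 0.23), the lactate transporter Slc16a1 (1.32, SE 0.23) and the lipid-sensing nuclear receptor Pparg (1.23, SE 0.21) rose. Nr1h3, which encodes LXR-alpha, a nuclear receptor known to raise Mertk transcription, is among the Kupffer cell markers too. It averaged 141.9 ± 31.1 CPM in CCl4 and 277.4 ± 43.8 CPM in vehicle libraries (-0.97, SE 0.19, edgeR adjusted p = 0.00499), while Mertk itself was not called. Rxra, the partner of LXR and PPAR receptors, also fell (-0.60, SE 0.18, edgeR adjusted p = 0.0421) and was chosen after its values were seen. Without CCl4 3 or vehicle 4 the count of higher genes was 3, and 1 was lower without CCl4 1, 3 or 4 or vehicle 1, 3 or 4. None of 7 tested genes of TAM receptor shedding and feedback passed edgeR's test, with 3 higher and 0 lower at unadjusted p under 0.05, 2 higher by DESeq2 and 0 by limma on FPKM. Without CCl4 4 and vehicle 2, 1 was higher by edgeR. Adam17, the protease known to shed Mertk, was named after its values were seen. It averaged 262.4 ± 45.2 CPM in CCl4 and 165.0 ± 49.8 CPM in vehicle libraries and did not pass (edgeR adjusted p = 0.0796).

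**Figure D5:**
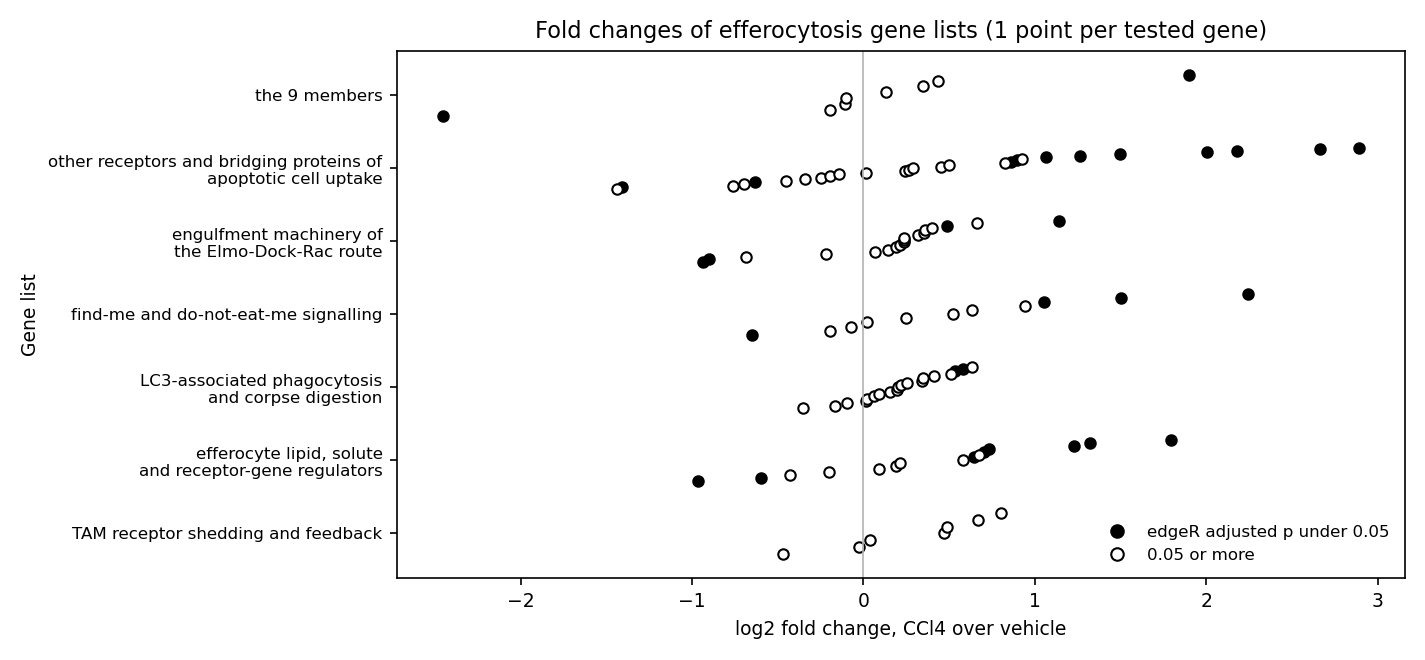
log2 fold change of every tested gene (1 point each) in the members and in 6 lists of related genes; filled points passed the edgeR test. Called genes lie on both sides of 0 in 4 of the 6 lists, and the list of TAM receptor shedding and feedback has none.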

How the data were processed

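Per the labels' protocols, RNA of sorted cells went through SMART-Seq HT amplification into NEBNext Ultra II libraries, with no step named that marks the strand. The authors deposited kallisto estimated counts and TPM per transcript and a table of FPKM per gene. Per the submitters' processing notes kallisto, edgeR, limma and mm10 were used. The sources used here do not give versions, the transcript release or how the FPKM table was made.

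Transcripts were assigned to genes with GENCODE M21 (GRCm38) by identifiers without version suffix. Of 117494 transcripts, 116405 matched, and the 44 member transcripts had the same lengths in the files and in M21. Estimated counts were summed per gene and rounded. Genes kept by filterByExpr (minimum count 10, minimum total 15) were tested with edgeR 4.0.16 (R 4.3.3), TMM, quasi-likelihood, two-sided, Benjamini-Hochberg over all tested genes. SE is the fold change's size over the square root of F. The test was tested on simulated data with 200 of 14848 genes changed, where it called 67% of the genes given a log2 change of 1 and 99% at a log2 change of 2, and 5.68% of its calls were false. Alternatives used DESeq2 1.42.0, limma 3.58.1 on log2(FPKM + 1) or log2(FPKM + 0.1), other scalings, no filter and left-out libraries.

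The members and lists were chosen with earlier results of these data known. All members were described. Of each list, up to 4 called genes with the smallest adjusted p were named, and for each called member the 3 genes with the highest Pearson r.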

Additional observations from a re-analysis of the deposited data

Results flagged for a closer look

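Among 68 groups of 4 libraries examined, 8 held a library far from the other 3, where chance gives about 1 in 20 groups, or 3.4. Vehicle 2 accounted for 6 of these. Its Axl level was 651.1 CPM against 1691 to 1789 CPM in the other vehicle libraries, and its Timd4 to Clec4f TPM ratio was 0.0746 against 0.053 to 0.0545. Axl-201 held 95.7% of its Axl counts against 92.9% to 93.3%, and Axl-202 held 2.62% against 5.26% to 5.45%. Mertk-201 held 71.4% of its Mertk counts against 95.7% to 98.9%, and Mertk-202 held 28.6% against 1.09% to 4.35%. In CCl4 4, Elmo1-204 held 5.17% of Elmo1 counts against 2.14% to 2.53% in the other CCl4 libraries. In vehicle 1, Pros1-201 held 99.2% of Pros1 counts against 100% in the other vehicle libraries. Several of these values are shares of 1 gene and move together.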

How the results depend on the processing

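Timd4 was called lower in every setting tried. Mfge8 was called higher in all of them except limma on log2(FPKM + 1) without a filter, where 0 members were higher (Mfge8 log2 fold change 1.2, limma adjusted p = 0.0875). With any single library left out, 1 member was higher and 1 lower, and so too with the replicate number as a block. Timd4 was then between -2.66 and -2.29. Signs that turned belonged to differences that did not pass the test. With single libraries left out, Mertk ran from -0.28 to 0.040 (without CCl4 1), Pros1 from -0.23 to 0.023 (without vehicle 4), Dock1 from -0.081 (without vehicle 2) to 0.26, and the Axl to Mertk log2 ratio difference from -0.080 to 0.20. Dock1 became -0.011 with limma on unfiltered FPKM. Without vehicle 2 and CCl4 4, Dock1 became -0.081 and the Axl to Mertk difference -0.026. No ratio passed in any setting. With so few libraries, a ratio that alone reached the smallest exact permutation p could not pass after adjustment over 3 ratios. The Mfge8-201 share, 22.1 percentage points higher in CCl4, stayed between 19.3 and 23.4 in alternatives added after the data were seen. Same-numbered libraries did not deviate together (r of 0.02, -0.24, 0.04 and -0.17), although these values cannot exclude a pairing. The replicate block gave 1.87 for Mfge8 and -2.51 for Timd4. It ended the calls of Bcar1, Rhog and Lamp2 (edgeR adjusted p of 0.0604, 0.077 and 0.0705). Over all genes, 1358 were higher and 953 lower, against 1082 and 1431 with library size only and 1226 and 1356 with upper-quartile scaling. The FPKM fits called 991 of 6359 genes tested (pseudocount 1), 957 of 6359 (pseudocount 0.1) and 650 of 24443 (pseudocount 1, no filter), against 2311 of 15212 by edgeR. Of the pathway lists, in the order they were described up to the lipid and solute genes, DESeq2 called 11, 4, 6, 6 and 8 genes higher and 2, 3, 1, 0 and 2 lower, and limma on filtered log2(FPKM + 1) called 6, 1, 2, 1 and 3 higher and 1, 0, 0, 0 and 2 lower. The cause of these changes was not tested. With library size only, Rhog, Atg12 and Lamp2 were not called. Low counts limit Gulp1 and the transcript shares of Mfge8 in vehicle libraries.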
